A study of Ovis aries with 95 samples.

Results

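CD14, ITGAM, FCGR1A and FCGR2B are surface receptors of microglia and other myeloid cells, and they were followed here in the brain of the sheep before and just after birth. The members were the gene probes that the array files assign to these 4 genes by gene name, transcript accession or description. They are 6 probes of 4 genes, out of 15008 probes and 14346 genes on the array. RNA came from untreated animals, from the whole dissected hypothalamus, both hippocampi, the brainstem and a section of the frontal cortex. There were 6 ages in each region, namely 80 d, 100 d, 120 d, 130 d and 145 d of gestation and newborn lambs at 1 d after birth, and the study's methods place the 100 d and 145 d groups within a few days below those ages. Each region and age had 4 arrays, one per sample, except the hippocampus at 100 d with 3, which gave 95 arrays. The methods state that each group held 1 set of twins. By the methods the 4 regions came from the same 4 animals of an age, so arrays of different regions share animals, and the labels mark neither these nor the twins. Arrays entered the tests as independent samples, and the p-values measure the spread between them.

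Microglia are the resident macrophages of the brain, and their receptors serve to detect microbial products and opsonized particles. CD14 binds bacterial endotoxin and hands it to the receptor formed by TLR4 and LY96. ITGAM, also called CD11b, pairs with ITGB2 to form complement receptor 3, which binds C3 fragments and adhesion molecules such as ICAM1. FCGR1A is the high-affinity receptor for IgG and signals through FCER1G, whereas FCGR2B is a low-affinity IgG receptor that inhibits activation. None of the 4 is restricted to microglia, since blood monocytes, neutrophils and macrophages at the brain's borders carry one or more of them, and FCGR2B is also found on B cells.

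The probes are shown because they decide how far the signals of 1 gene are independent. Each has 60 bases, and the files give its position in the transcript and no genome build. In CD14 and in ITGAM the capitals mark the bases that both probes of the gene share.
CD14 from base 956: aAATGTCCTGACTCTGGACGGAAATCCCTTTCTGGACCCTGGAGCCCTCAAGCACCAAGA
CD14 from base 957: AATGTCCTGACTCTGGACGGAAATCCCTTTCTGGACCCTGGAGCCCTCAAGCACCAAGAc
ITGAM from base 3170: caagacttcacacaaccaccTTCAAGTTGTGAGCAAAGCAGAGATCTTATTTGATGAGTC
ITGAM from base 3190: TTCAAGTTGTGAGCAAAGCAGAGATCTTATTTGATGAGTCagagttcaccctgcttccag
FCGR1A from base 716: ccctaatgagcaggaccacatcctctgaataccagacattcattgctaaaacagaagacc
The CD14 probes share 59 bases and are close to a repeat of 1 probe, and over the 95 arrays their log2 levels correlated with r = 0.945. The ITGAM probes share 40 bases, and their r was 0.516 over all arrays and 0.189 over the 24 hypothalamus arrays. FCGR1A and FCGR2B (from base 1228) had 1 probe each. The longest run that a member probe shared with a probe of any other gene, on either strand, was 13 bases.

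Levels are log2 values of the fluorescence after background correction and quantile normalization of all arrays together. The correction adds an offset of 50 to every spot, which narrows the differences of dim probes, so levels of different probes are not compared. Over the arrays, 59.5 to 88.5% of gene spots were well above background by the scanner software's mark, and the lowest level of a spot with this mark had a median of 6.46. CD14 was well above background on 95 of 95 arrays (100%), FCGR1A on 85 (89.5%), ITGAM on 80 (84.2%) and FCGR2B on 30 (31.6%). All 6 probes were free of saturated spots and outlier marks. CD14 alone was well above background on every array of all 24 groups, whereas FCGR2B was so on every array of 1 group and on no array of 8 groups. Of 53 microglia and macrophage genes listed for this work, 9 had a probe with a name here, and these did not include CSF1R, AIF1, CX3CR1, P2RY12, TMEM119 or TREM2. Since 13452 of the 15008 probes are known by accession only, the label of microglia was not checked against these markers. Over all probes, 5 arrays stood apart with a mean correlation under 0.91 to the other arrays of their group, namely newborn replicate 4 in brainstem and, in hippocampus, 100 d replicate 3, 120 d replicates 2 and 4 and newborn replicate 3. Changes between ages whose call turned on them are given with and without them. In tissue RNA, fewer cells of a type and less RNA per cell cannot be told apart.

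**Figure D1:**
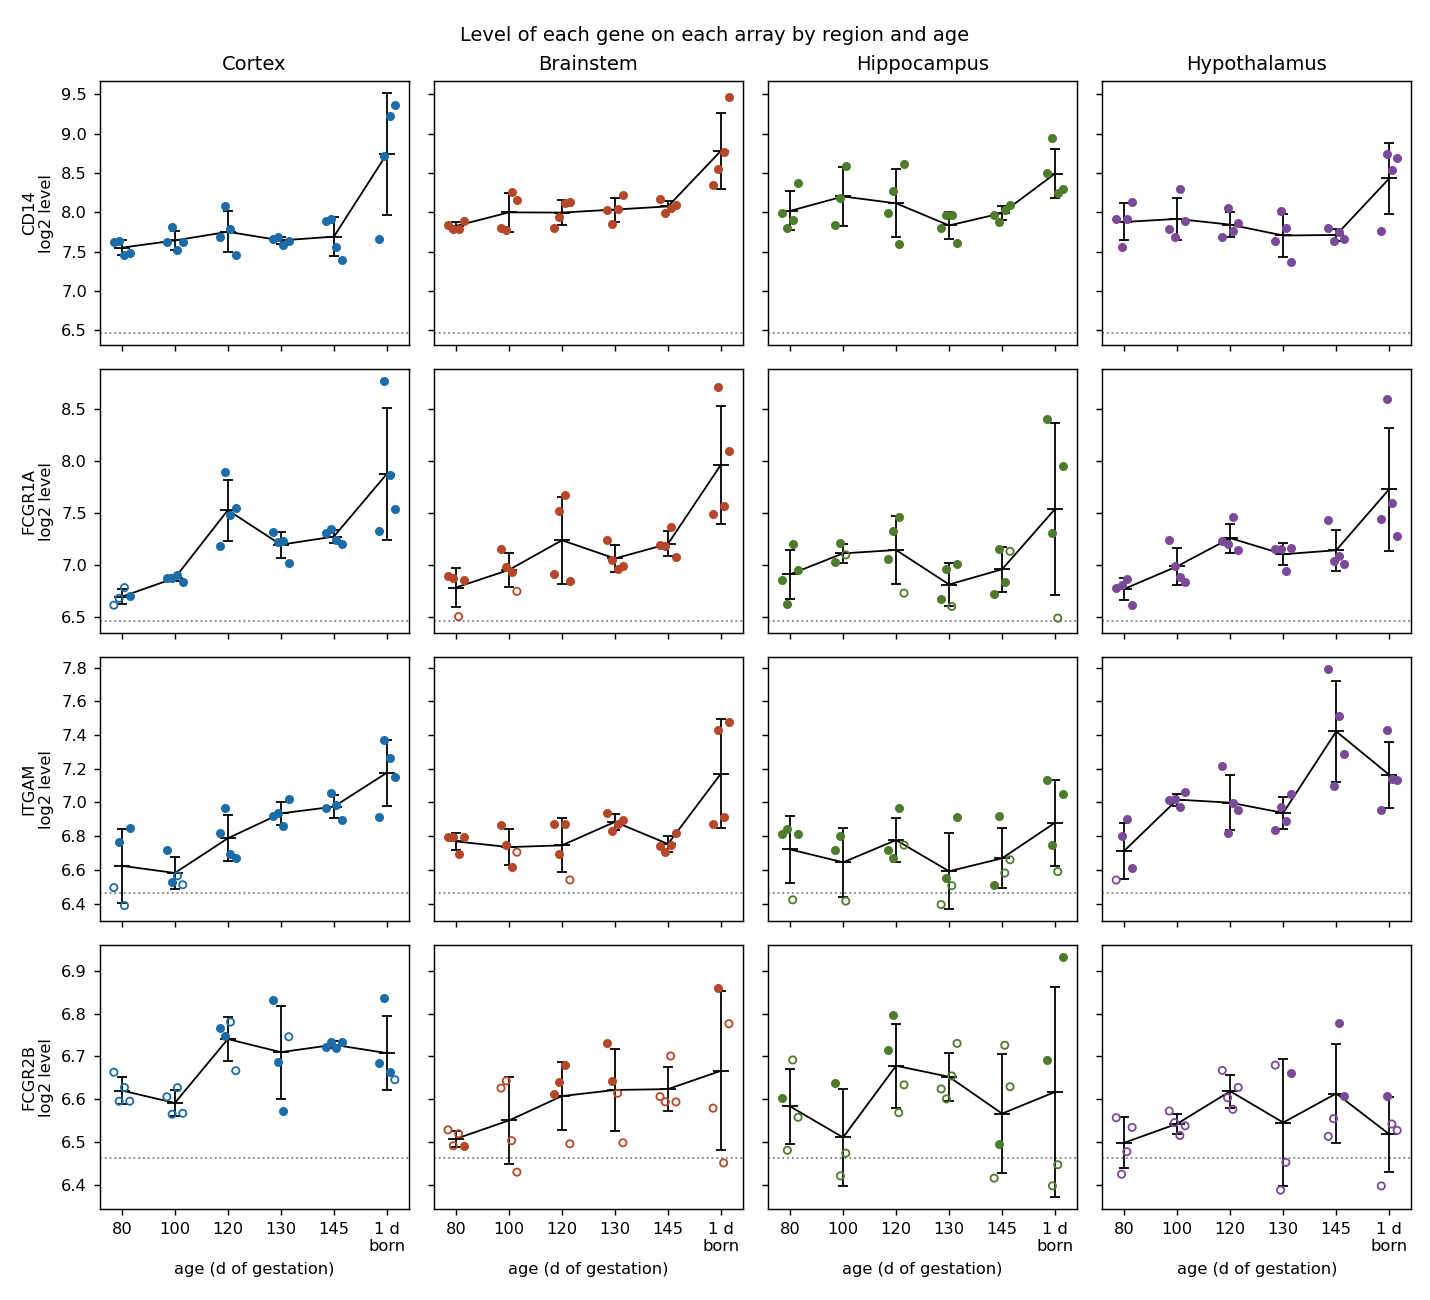
Log2 level (y axis) of CD14, FCGR1A, ITGAM and FCGR2B in rows and of the 4 regions in columns, against age in days of gestation, with newborn lambs at the right of each panel. Points are arrays, filled where the gene was well above background, the black line joins group means with SD bars, and the dotted line is the median (6.46) of the lowest level well above background. CD14 and FCGR1A have their highest mean in the newborn in all 4 regions, ITGAM in hypothalamus has it at 145 d, and FCGR2B lies near the dotted line.

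Across the whole span from 80 d to 1 d after birth, CD14, FCGR1A and ITGAM rose in cortex, brainstem and hypothalamus, and FCGR2B passed the test in no region. This made 9 of the 16 pairs of gene and region, all upward. By region 3 of 4 members were called in cortex, where 44.8% of all genes tested were called, 3 in brainstem (43% of all genes), 3 in hypothalamus (18%) and 0 in hippocampus (5.75%). The members' counts are read against these shares, which were high in cortex and brainstem. For hippocampus limma gave 2 members, CD14 and FCGR1A, at an unadjusted p under 0.05. The moderated F test of all 5 later ages against 80 d called 3 of 4 members in cortex (45.7% of all genes), 3 in brainstem (40.5%), 2 in hypothalamus (16%) and 0 in hippocampus (3.07%), where no member had an unadjusted p under 0.05.

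The change was split between fetal life and birth. From 80 d to 145 d, 2 members rose in cortex (41.4% of all genes were called) and 1 in hypothalamus (14.1%). None was called in brainstem (37.5%) or hippocampus (4.55%) by limma, adjusted or unadjusted. From 145 d to 1 d after birth, 3 members rose in brainstem, against 4.9% of all genes called, and 1 in hypothalamus, against 2.48%. In cortex 0 were called, with 0.248% of all genes called, and in hippocampus 0, with 0.00788%, while 2 members in cortex and 1 in hippocampus had an unadjusted p under 0.05 in limma.

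**Figure D2:**
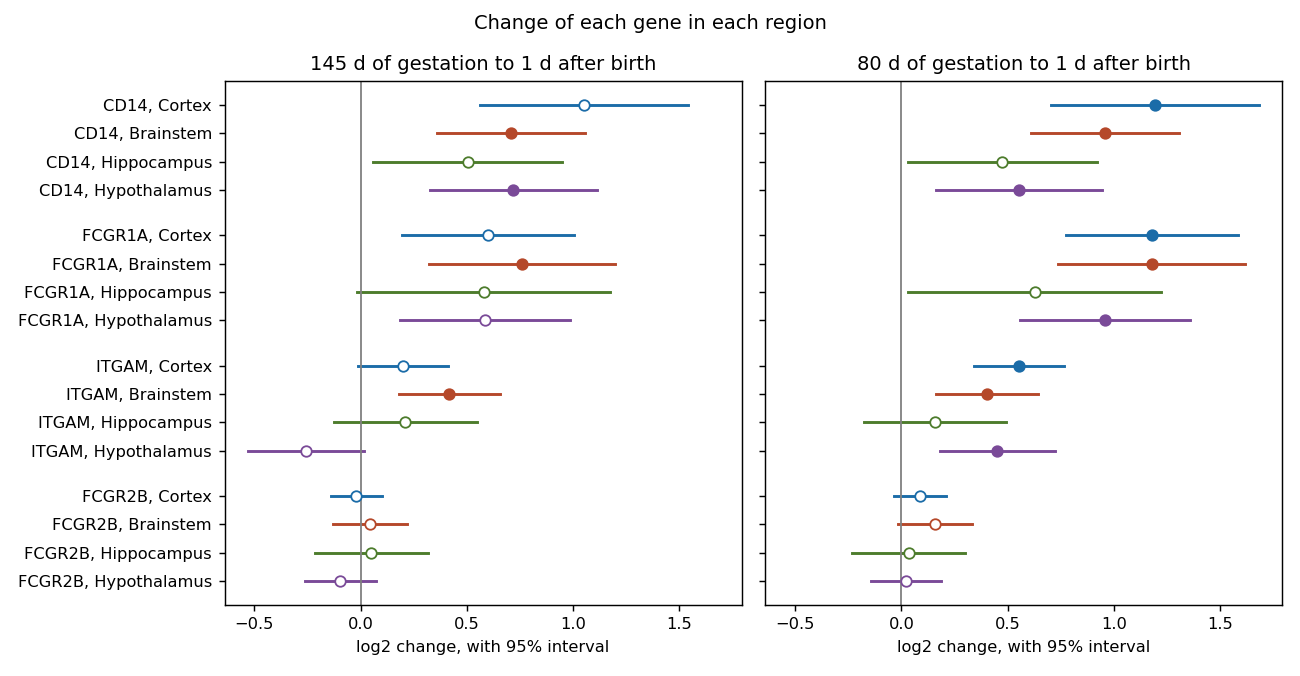
Log2 change (x axis) of each gene in each region from 145 d to 1 d after birth (left) and from 80 d to 1 d after birth (right), as points with 95% intervals from the limma fit. Filled points passed an adjusted p under 0.05. In the right panel the 9 filled points are CD14, FCGR1A and ITGAM in cortex, brainstem and hypothalamus, and the intervals of FCGR2B all include 0.

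CD14, the endotoxin co-receptor, had its highest mean in the newborn in all 4 regions, and in no region did its change from 80 d to 145 d pass the test (-0.17 to 0.25). In brainstem its 20 fetal arrays ran from 7.77 (median 8.01) to 8.26, and the newborn arrays read 8.35, 8.55, 8.77 and 9.47. All 4 newborn arrays therefore lay above all fetal arrays. From 145 d the rise was 0.71 (SE 0.17, adjusted p = 0.0203), or 1.63-fold. It did not pass without 145 d replicate 3 (0.70, adjusted p = 0.0541) or replicate 4 (0.71, adjusted p = 0.0536). From 80 d to the newborn CD14 rose by 0.96 (SE 0.17, adjusted p = 0.000114), or 1.94-fold. Without newborn replicate 4, the highest array and 1 of the 5 that stood apart, the rises were 0.48 (adjusted p = 0.0293) and 0.73 (adjusted p = 5.99e-05). On that array the CD14 probes from bases 957 and 956 were 1.01 and 0.82 above the mean of the other newborn arrays. The probes lying near each were above by a median of 0.52 and 0.30.

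In cortex the 145 d arrays gave CD14 levels of 7.89, 7.91, 7.56 and 7.40, and the newborn arrays 7.66, 8.72, 9.23 and 9.36. The last 3 newborn arrays were above all 20 fetal arrays, which reached 8.08, whereas newborn replicate 1 lay among them. The change at birth was 1.05 (SE 0.24) and did not pass (adjusted p = 0.0658). Without newborn replicate 1 it was 1.42 (adjusted p = 1.4e-05), and without 120 d replicate 2 it was 1.05 with an adjusted p of 0.0386. From 80 d to the newborn CD14 rose by 1.19 (SE 0.24, adjusted p = 0.000257), or 2.29-fold.

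In hypothalamus the arrays fell out in the same way. At 145 d the CD14 levels were 7.80, 7.63, 7.75 and 7.66, and in the newborn 7.76, 8.74, 8.54 and 8.69. Newborn replicate 1 was again at the fetal level and the other 3 were above all 20 fetal arrays. CD14 rose by 0.72 at birth (SE 0.19, adjusted p = 0.0482) and by 0.55 over the whole span (SE 0.19, adjusted p = 0.0455). Both values lie close to the threshold and were lost when 1 of many arrays was left out, with adjusted p of 0.126 and 0.146 without newborn replicate 2. In limma the probe from base 956 passed for both changes (adjusted p = 0.0478 and 0.0267), and the probe from base 957 for neither (adjusted p = 0.0561 and 0.0876). The F test of CD14 over all ages did not pass there (adjusted p = 0.0594).

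In hippocampus CD14 read 7.96, 7.87, 8.03 and 8.09 at 145 d and 8.49, 8.94, 8.24 and 8.30 in the newborn, and these groups did not overlap. The fetal arrays of this region were the most scattered, from 7.59 to 8.61, so 1 newborn array was above all of them. The difference of 0.50 at birth (95% interval 0.06 to 0.95) had an adjusted p of 1, in a region where 1 of 12688 genes was called for birth, and without the 4 hippocampus arrays that stood apart it was 0.59 (adjusted p = 0.335). The spread of CD14 between newborn arrays (SD 0.32 to 0.77) was wider than in a fetal group at its median (SD 0.16). In the order of the group means, 6 of 20 neighbouring ages differed by more than their pooled SD, 3 of them the newborn against the age below it.

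FCGR1A, the activating high-affinity IgG receptor, had its lowest mean at 80 d in cortex, brainstem and hypothalamus. In cortex it was near background at 80 d, with 6.62, 6.68, 6.78 and 6.71 and only the last array marked well above background, and it was well above background on all 4 arrays at each later age. The newborn arrays read 7.33, 8.76, 7.87 and 7.54. All 4 lay above the 80 d, 100 d and 130 d arrays, but not above those at 120 d, which reached 7.90, or at 145 d, which reached 7.34. FCGR1A rose by 0.58 from 80 d to 145 d (SE 0.19, adjusted p = 0.0208) and by 1.18 to the newborn (SE 0.19, adjusted p = 3.73e-05), or 2.26-fold. The birth step of 0.60 did not pass (adjusted p = 0.297), and without newborn replicate 1 it was 0.78 (adjusted p = 0.039).

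In brainstem FCGR1A read 7.19, 7.18, 7.36 and 7.08 at 145 d and 7.49, 8.71, 7.56 and 8.09 in the newborn. The groups did not overlap, and 2 newborn arrays exceeded every fetal array. It rose by 0.76 at birth (SE 0.21, adjusted p = 0.0414) and by 1.18 from 80 d (SE 0.21, adjusted p = 0.000152), or by 1.14 without the arrays that stood apart (adjusted p = 0.000383). The birth step did not pass when 1 of several arrays was left out. Its adjusted p was 0.0984 without newborn replicate 2 (0.51), 0.0725 without newborn replicate 4 (0.72) and 0.111 without 145 d replicate 4 (0.72).

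In hypothalamus the FCGR1A arrays at 80 d were 6.78, 6.81, 6.87 and 6.62, and the newborn arrays were 7.44, 8.59, 7.59 and 7.28. All newborn arrays were above all 80 d arrays, and 1 of them stood well apart from the rest. The rise over the whole span was 0.96 (SE 0.19, adjusted p = 0.00124), of which 0.59 lay between 145 d and birth (adjusted p = 0.0929). Without newborn replicate 2 the change from 80 d to 145 d, 0.37 in both fits, passed with an adjusted p of 0.0338.

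In hippocampus newborn FCGR1A spread from 6.49 on replicate 3, where it was not well above background, over 7.31 and 7.95 to 8.40 on replicate 1. This was the widest newborn group of the member (SD 0.83), and it enclosed all fetal arrays from 6.60 to 7.46. The change from 80 d was 0.63 (SE 0.28, adjusted p = 0.247). Replicate 3 is 1 of the 5 arrays that stood apart, and without it the rise was 0.98 (adjusted p = 0.0146), and without all 5 it was 0.98 (adjusted p = 0.0148). Across all 4 regions the mean at 120 d was above the mean at 130 d, by 7.53 to 7.19 in cortex, 7.24 to 7.06 in brainstem, 7.14 to 6.81 in hippocampus and 7.26 to 7.10 in hypothalamus. This pair of ages was not among the tests, and their arrays overlapped in each region.

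**Figure D3:**
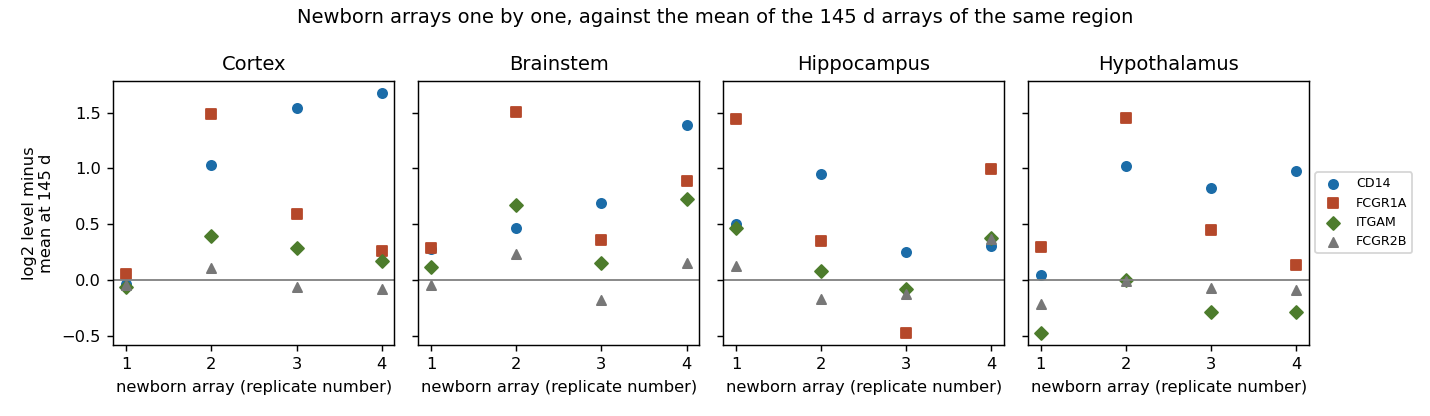
Log2 level of each member on each newborn array minus the mean of the 4 arrays at 145 d of the same region (y axis), by replicate number (x axis), with 1 symbol per gene. CD14 is near 0 on replicate 1 of cortex and hypothalamus, and FCGR1A is highest on replicate 2 in cortex, brainstem and hypothalamus and on replicate 1 in hippocampus. The labels do not say that a number marks the same lamb in different regions.

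ITGAM, the alpha chain of complement receptor 3, rose in 3 regions over the whole span. In cortex it was well above background on 2 of 4 arrays at 80 d and 100 d and on all 4 from 120 d. The 80 d arrays read 6.49, 6.76, 6.39 and 6.85, those at 145 d 6.96, 7.06, 6.99 and 6.89, and the newborn arrays 6.92, 7.37, 7.27 and 7.15. ITGAM rose by 0.35 from 80 d to 145 d (SE 0.10, adjusted p = 0.00797) and by 0.55 to 1 d after birth (SE 0.10, adjusted p = 0.000128), or 1.47-fold. The step at birth was 0.20 (adjusted p = 0.682). For the fetal step the probe from base 3170 rose by 0.54 (adjusted p = 0.000451), and the probe from base 3190 had a value of 0.17 (adjusted p = 0.319).

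In brainstem the fetal group means of ITGAM lay between 6.74 and 6.88, and the change from 80 d to 145 d was -0.02 (adjusted p = 0.937). At 145 d it read 6.74, 6.71, 6.74 and 6.82 and in the newborn 6.87, 7.43, 6.91 and 7.48, with no overlap, and 2 newborn arrays were far above the other 2. On newborn replicate 4 the ITGAM probes were 0.31 and 0.50 above the mean of the other newborn arrays. The probes lying near each on that array were above by a median of 0.48 and 0.57, and all probes by 0.23. The part of this shift in the ITGAM level was not tested. The rise at birth was 0.42 (SE 0.11, adjusted p = 0.0387), or 1.34-fold. It did not pass without newborn replicate 2 (0.33, adjusted p = 0.0932), without newborn replicate 4, 1 of the 5 arrays that stood apart (0.32, adjusted p = 0.0895), or without any 1 of the 145 d arrays (adjusted p 0.0748 to 0.0897). For the birth step the probe from base 3190 passed in limma (0.43, adjusted p = 0.0416) and the probe from base 3170 did not (0.41, adjusted p = 0.0602). Over the whole span ITGAM rose by 0.40 (SE 0.11, adjusted p = 0.00752), and by 0.30 without newborn replicate 4 and the 4 hippocampus arrays (adjusted p = 0.0257).

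In hypothalamus ITGAM had its highest mean at 145 d. Its levels were 6.54, 6.80, 6.90 and 6.61 at 80 d, 7.79, 7.10, 7.51 and 7.29 at 145 d, and 6.95, 7.43, 7.14 and 7.14 in the newborn. All 145 d arrays were above all 80 d arrays, whereas the newborn and 145 d arrays overlapped. ITGAM rose by 0.71 from 80 d to 145 d (SE 0.13, adjusted p = 0.000758), or 1.63-fold. The next step was -0.26 (95% interval -0.53 to 0.01, adjusted p = 0.281). Both probes rose up to 145 d, by 0.72 (adjusted p = 0.0127) and 0.70 (adjusted p = 0.0339). After birth the probe from base 3170 read 7.48 ± 0.37 and the probe from base 3190 read 6.85 ± 0.35 (SD, n = 4), with changes of -0.04 and -0.48 that did not pass (adjusted p = 0.948 and 0.223). Over the whole span the gene rose by 0.45 (adjusted p = 0.0189), the probe from base 3170 by 0.68 (adjusted p = 0.0139), and the value of the probe from base 3190 was 0.22 (adjusted p = 0.538). The gene's call for the whole span was lost without 80 d replicate 1 (0.39, adjusted p = 0.0643), 80 d replicate 4 (0.42, adjusted p = 0.0573) or newborn replicate 2 (0.36, adjusted p = 0.0791).

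**Figure D4:**
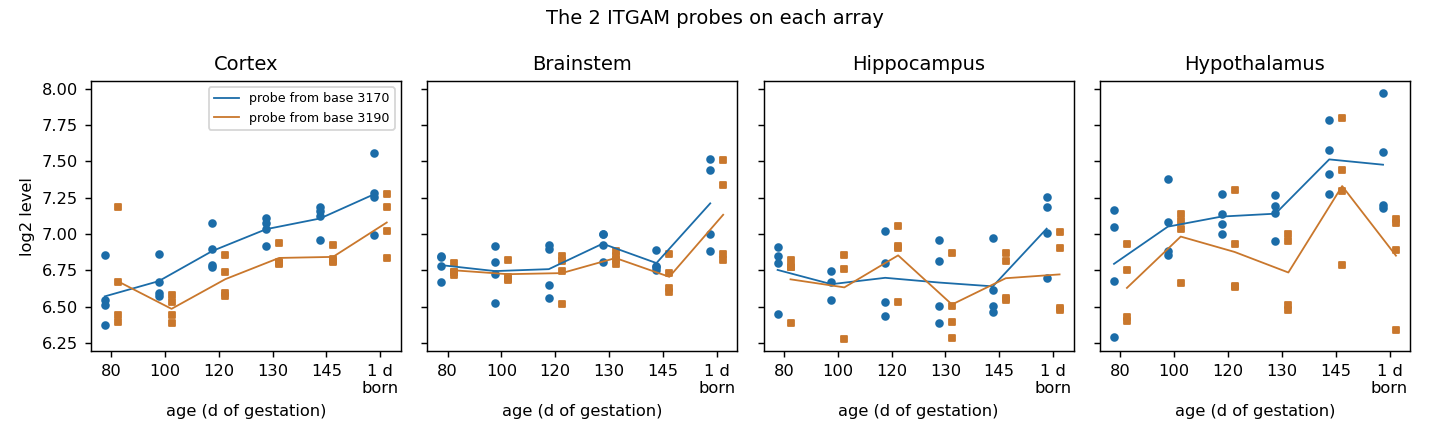
Log2 level (y axis) of the 2 ITGAM probes on each array against age in days of gestation, with newborn lambs at the right, by region. Points are arrays and lines join the group means, circles for the probe from base 3170 and squares for the probe from base 3190. Over the arrays of a region the probes correlated with r = 0.876 in brainstem, 0.713 in cortex, 0.414 in hippocampus and 0.189 in hypothalamus. Their means part in the newborn hypothalamus (7.48 and 6.85), and also in hypothalamus at 130 d (7.14 and 6.74) and in the newborn hippocampus (7.04 and 6.72).

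In hippocampus ITGAM was measured least often, on 15 of 23 arrays (65.2%), and its group means stayed between 6.59 and 6.88. The change over the whole span was 0.16 (95% interval -0.18 to 0.49, adjusted p = 0.652).

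One test asked whether the course over age differed between regions, in a fit of all 95 arrays. It called 1 of the 4 members, ITGAM (adjusted p = 0.0334), where 8.22% of the 12316 genes tested were called. CD14 (adjusted p = 0.994), FCGR1A and FCGR2B (both 1) did not pass, so the larger values of these genes in cortex than in hippocampus are not shown to differ. The ITGAM result rests on both probes together. With each probe on its own the adjusted p was 0.372 and 0.103, and without hypothalamus 145 d replicate 1 it was 0.108. Without the 5 arrays that stood apart it was 0.00776. The fit treated arrays of different regions as independent, although they share animals that the labels do not identify, and the effect of this on the p-values was not tested.

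FCGR2B, the inhibitory IgG receptor, lay close to the background throughout. Its arrays spanned 6.39 to 6.93, with group means between 6.50 and 6.74. In cortex it read 6.66, 6.60, 6.63 and 6.60 at 80 d, with no array well above background. At 145 d the arrays read 6.72, 6.73, 6.72 and 6.73, all well above background, and in the newborn 6.68, 6.84, 6.66 and 6.65. The arrays at 80 d and 145 d did not overlap. The change in the fit was 0.11 (SE 0.06) and did not pass (adjusted p = 0.155). The 80 d level has only a bound. Taking on each 80 d array the higher of the probe's own level and the lowest level well above background gave 1.08-fold. This is the same as the fold between the group means, so it sets no lower limit on a change that did not pass. Over the whole span the values were 0.09 for cortex, 0.16 for brainstem, 0.03 for hippocampus and 0.02 for hypothalamus. The 95% intervals had upper ends of 0.21, 0.33, 0.30 and 0.19, on a scale that the offset narrows. Without newborn replicate 3 the brainstem value was 0.23 and passed (adjusted p = 0.0273).

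The background handling moved the size of the changes of the dim members. On the software's processed signal, which subtracts the background without an offset and was here divided by the array's own 75th percentile, the whole-span change was 1.98 for CD14, 3.71 for FCGR1A and 2.61 for ITGAM in cortex. On that scale FCGR2B also passed, with 1.93 in cortex (adjusted p = 0.000102) and 1.06 in brainstem (adjusted p = 0.0262), and from 80 d to 145 d with 2.02 (adjusted p = 7.07e-05) and 1.25 (adjusted p = 0.0106). These changes start near background. At 80 d FCGR2B was well above it on 0 of 4 arrays in cortex and 1 of 4 in brainstem, and at 145 d on 0 of 4 in brainstem. Their size is therefore uncertain. The birth values of ITGAM (0.95) and FCGR1A (1.18) in brainstem then did not pass (adjusted p = 0.0538 and 0.157).

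The regions also differed in mean level over the 6 ages for 3 of 4 members, CD14 (adjusted p = 0.00253), ITGAM (adjusted p = 1.01e-06) and FCGR2B (adjusted p = 0.00345). Of all genes 86% were called in this comparison, and each slide held 1 region, so that region and slide cannot be told apart. This fit too took arrays that share animals as independent. Without the 5 arrays that stood apart 3 members were called as well. CD14 was highest in brainstem (8.12) and hippocampus (8.11), then hypothalamus (7.91) and cortex (7.84). Of its 6 pairs of regions 3 passed. Cortex minus brainstem was -0.28 (SE 0.08, adjusted p = 0.00326), cortex minus hippocampus -0.27 (SE 0.09, adjusted p = 0.00558) and brainstem minus hypothalamus 0.21 (SE 0.08, adjusted p = 0.0391). ITGAM was highest in hypothalamus (7.04), next in cortex (6.85) and brainstem (6.84), which were not told apart (adjusted p = 0.964), and lowest in hippocampus (6.71), and 5 of its 6 pairs passed. FCGR2B was higher in cortex (6.68) than in the other regions (6.56 to 6.60), and those did not differ from one another past the threshold. FCGR1A means ran from 7.08 in hippocampus to 7.24 in cortex and no pair passed.

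Over the arrays, with each region's mean removed, FCGR1A and ITGAM correlated with r = 0.67, FCGR1A and CD14 with 0.537, and CD14 and FCGR2B with 0.0395 (n = 95 arrays, which share ages and slides). With each group's mean removed, r was 0.573 for FCGR1A and ITGAM and 0.0845 for FCGR1A and CD14. This leaves the differences between arrays of 1 region and age, where animal, slide and array quality cannot be told apart. On the 16 newborn arrays alone, again with group means removed, these values were 0.874 and 0.209. On the same arrays r was 0.791 for ITGAM and FCGR2B, 0.727 for FCGR1A and FCGR2B, 0.49 for CD14 and ITGAM, and 0.0261 for CD14 and FCGR2B. By the methods the 16 arrays come from 4 lambs, so they are not independent, and these r are descriptions.

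The partners and ligands of the members were followed from lists of their pathways. Of the endotoxin list, 11 of 20 genes had a named probe. TLR4, the signalling receptor that CD14 serves, rose over the whole span in cortex (0.38, adjusted p = 0.0047) and hypothalamus (0.34, adjusted p = 0.0324), and its change was 0.01 in brainstem and 0.07 in hippocampus. LY96 had no named probe. TLR2, a receptor for bacterial lipoproteins that also uses CD14, rose in cortex (0.47) and hypothalamus (0.51). The cytokine IL10 rose in cortex (0.73), brainstem (0.82) and hypothalamus (0.68), and IL1B in cortex (0.62) and brainstem (0.61). In this list 7 genes rose and 1 fell in cortex, and 4 rose in each of brainstem and hypothalamus, of 10 or 11 tested, and none was called in hippocampus. Of all genes tested 44.8% were called in cortex, 43% in brainstem, 18% in hypothalamus and 5.75% in hippocampus for the same span. Its median change was 0.38, 0.19, 0.10 and 0.33 in the order cortex, brainstem, hippocampus, hypothalamus, where the median of all genes was -0.03, 0.025, -0.02 and -0.03.

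ITGB2, the beta chain that ITGAM needs to reach the surface, rose over the whole span in cortex (1.34, adjusted p = 1.83e-05) and brainstem (0.52, adjusted p = 0.0344). Its change was 0.28 in hypothalamus (adjusted p = 0.374), and -0.49 in hippocampus (adjusted p = 0.71). ICAM1, a ligand of the receptor, rose in the step at birth in cortex (0.64, adjusted p = 0.045), brainstem (0.65, adjusted p = 0.0421) and hypothalamus (0.58, adjusted p = 0.0289). Among the 5 genes tested of the 14 on this list, 4 rose in cortex, 2 rose and 1 fell in brainstem, and 1 rose in hypothalamus, beside the same shares of all genes. The list median was 0.82, 0.48, 0.11 and 0.37 in the same order of regions.

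FCER1G, the signalling chain of FCGR1A, rose over the whole span in cortex (1.77, adjusted p = 6.73e-06) and hypothalamus (0.95, adjusted p = 0.0272) and had values of 0.44 in brainstem (adjusted p = 0.109) and 0.59 in hippocampus (adjusted p = 0.706). Of the IgG receptor list 3 of 15 genes were tested, and 2 rose in cortex, 1 in hypothalamus and none in brainstem or hippocampus. Of all genes 44.8% were called in cortex, 18% in hypothalamus, 43% in brainstem and 5.75% in hippocampus for this span. The list median was 0.445, 0.06, 0.10 and 0.37.

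Of the microglia and macrophage list 8 genes were tested. CTSS, a lysosomal protease of antigen presenting cells, rose in cortex (2.54), brainstem (1.15) and hypothalamus (1.23), and CD86, a costimulatory ligand, in cortex (0.74) and brainstem (0.99). CXCR4, a chemokine receptor also found on neural progenitors, fell in cortex (-1.36) and hypothalamus (-1.50). Counts were 3 up and 1 down in cortex, 4 up in brainstem, 1 up and 1 down in hypothalamus and 0 in hippocampus, of 8 tested in each, where 44.8%, 43%, 18% and 5.75% of all genes were called in the order cortex, brainstem, hypothalamus, hippocampus. The list medians in the earlier order were 0.32, 0.27, 0.35 and 0.20.

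Markers of blood cells were read beside the birth step, because blood monocytes and neutrophils also carry such receptors. Of 12 blood and neutrophil genes 2 had a named probe, LTF and MMP9, and S100A8, S100A9 and MPO were not among them. Their summed level, on the linear scale, ranged in cortex from 213.2 to 289.6 at 145 d and from 241.7 to 280.3 in the newborn, and in brainstem from 250.6 to 368.7 and from 282.6 to 400.7. In hippocampus it ranged from 208.8 to 235.1 and from 199.2 to 283, and in hypothalamus from 199.2 to 228.9 and from 219.2 to 271.3. In cortex and hypothalamus at 145 d and in the newborn brainstem and hippocampus, 1 of the 2 genes was well above background on no array. The sums also contain the offset, which narrows their differences, so similar sums do not show an unchanged blood content. LTF was called for birth in no region and MMP9 in none of the 3 where it was tested. LTF rose over the whole span in cortex (0.66) and brainstem (0.68). Of 13 T and NK lymphocyte genes 6 had a named probe, and at 145 d and in the newborn 1 of them was well above background on no array of the group. Their sum ran in cortex from 1117.3 to 1347 at 145 d and from 1183.1 to 1677.6 in the newborn, in brainstem from 918.3 to 1015 and from 1004.9 to 1927.5, in hippocampus from 964.6 to 1415.9 and from 1352.3 to 2096.1, and in hypothalamus from 1405.6 to 1796 and from 1696 to 2611.9. The median birth change over the 5 of these genes tested was 0.52, 0.43, 0.60 and 0.45 in the same order. Over all genes it was -0.02, 0.03, -0.02 and 0.004. Limma called none of the 5 for birth, beside the same low shares of all genes. The 2 erythroid genes of 11 listed had a summed level in brainstem of 5958.3 to 13047.3 at 145 d and 3244.9 to 10857.8 in the newborn, and in hippocampus of 576.9 to 4996.8 and 2330.7 to 33999.2. In cortex the sum was 2252.2 to 6381.9 and 3233.4 to 6328.4, and in hypothalamus 4689.9 to 15300.7 and 2851.2 to 6423.9. The part of blood cells in the results of the members was not tested.

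For each member the 3 named genes with the most similar course were found among 833 named genes, by Pearson's r over the 24 group means after each region's mean was removed. They were ICAM1 (0.918), SELP (0.917) and MX2 (0.89) for CD14, CD86 (0.93), OVAR (0.927) and IRF1 (0.917) for FCGR1A, ABCB1 (0.82), PGFS (0.812) and SOD2 (0.812) for ITGAM, and FLAP (0.847), RTP4 (0.731) and KRT27 (0.729) for FCGR2B. OVAR is the file's name for an MHC class I antigen, and SELP and ICAM1 are adhesion molecules of activated endothelium.

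Within slides the birth changes of CD14, FCGR1A and ITGAM in brainstem were upward on 3 of 3 slides, by 0.27 to 1.02, 0.30 to 1.34 and 0.15 to 0.68. A slide held only 1 or 2 arrays of each age, the same as in the fits, so these values are descriptions without a test. In cortex CD14 was higher in the newborn on 2 of 3 slides (-0.23 to 1.82), and over the whole span on 3 of 3 (0.03 to 1.81). The fetal rise of ITGAM in hypothalamus was upward on 3 of 3 slides (0.49 to 1.12). Its step at birth there was upward on 1 of 3 (-0.84 to 0.33).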

How the data were processed

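Labelled RNA was hybridized by the authors to 1-colour arrays of 60-base probes and read with Feature Extraction 10.1.1.1, per the file headers. The deposited files hold the mean intensity, local background and processed signal of each spot. A table of log2 values that the authors deposited served only as an alternative. All 95 columns matched their own array best (lowest r 0.999, column medians 9.043 to 9.099), and how its background was treated is not given in the sources used here. It holds 3 of the 4 members.

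Intensity was background corrected here by normexp (offset 50), quantile normalized and fitted with limma 3.58.1 in R 4.3.3. On 12 arrays a few spots with very bright local background made the normexp fit fail, so that 43.8 to 70.2% of probes passed the filter there against 63.7 to 89.2% elsewhere. Probes at least 1.1 times the 95th percentile of 77 negative controls on at least 4 arrays of a region were kept, and probes of a gene averaged. All 4 members passed in all regions. Ages were fitted together per region, with Benjamini-Hochberg adjustment over all genes (12688 to 12930) and calls at adjusted p under 0.05. Intervals use limma's moderated error. The number of arrays limits precision. Named genes were the members, their 3 most similar genes and pathway genes past the F test in at least 2 regions, with partner subunits. Symbols came from the files and RefSeq (ARS-UI_Ramb_v3.0) for 1556 probes. The fits were tested on simulated data. Members and lists were chosen with earlier results of these data known.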

Additional observations from a re-analysis of the deposited data

Results flagged for a closer look

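In 92 groups of 4 arrays 1 array stood off from the other 3 in 6 cases by most of the group's range, and chance alone gives this in about 1 of 20 groups. The 80 d arrays numbered 3 were low for ITGAM in brainstem (6.69 against a next value of 6.79, gap 0.973 of the range) and in hippocampus (6.42 against 6.81, 0.925) and for FCGR1A in brainstem (6.51 against 6.86, 0.907), so 2 of these 3 come from the same array. FCGR1A in hypothalamus had a low array at 130 d (6.95 against 7.15, 0.965) and a high array at 145 d (7.43 against 7.08, 0.834). FCGR2B in brainstem had a high array at 145 d (6.70 against 6.61, 0.884), which was not well above background. The course of ITGAM over age differed between regions (adjusted p = 0.0334 in limma, over 95 arrays), with its highest mean at 145 d in hypothalamus and in the newborn in the other 3 regions.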

How the results depend on the processing

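As reported, 8 of the 16 pairs of gene and region passed the F test, 3 the change from 80 d to 145 d, 4 the change at birth and 9 the whole span. The birth count was the least stable. It was 2 with an offset of 16, 2 on the processed signal, 2 with every probe on its own, and 0 at an adjusted p under 0.01. With choices made after seeing the data it was 2 without the 5 arrays that stood apart, 1 without the newborn arrays numbered 2 and 6 without those numbered 1. Leaving out each array in turn gave 1 to 6, with 1 without brainstem 145 d replicate 3 or replicate 4 and 6 without cortex newborn replicate 1. The count from 80 d to 145 d was 6 on the processed signal and 3 to 4 with 1 array left out, the F test 7 to 9 and the whole span 7 to 10. The ITGAM difference between regions was lost (0 members) in the authors' series table, with the brightest probe, with every probe on its own, at an adjusted p under 0.01 and with the filter on the log2 scale, the last added after seeing the data. It was also lost without any 1 of 8 arrays, giving 0 to 1 over all arrays left out. The causes were not tested. Among 816 values of single members under the alternatives, 774 kept their side of the threshold or moved by less than the spread between arrays, 28 lost and 13 gained a call, 1 moved further, and none of them turned its direction after being called. With the local background capped at the signal, also added later, 48 of 48 changes stayed on the same side.

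Replicate numbers recur in all groups, and the labels do not say that a number marks an animal. Deviations from the group means of arrays of 1 age in different regions had a median correlation of 0.0512 (-0.343 to 0.555) with the same number and -0.0497 with different numbers, and 39.7% and 21% of the pairs were over 0.1. Since not every pair with the same number was over 0.1, the numbers were not taken as pairing the arrays. This rule cannot show that arrays of the same number come from different animals. The same number went with a higher correlation, but also among arrays of 1 region at different ages, which come from different animals. Their median was 0.103 with the same number and -0.0436 with different numbers, and 50.6% and 29.9% of the pairs were over 0.1. In cortex, brainstem and hypothalamus, however, all arrays numbered 1 of a region lay on the same slide, whereas arrays of different regions share no slide. The comparison over ages therefore cannot tell whether arrays with the same number in different regions share an animal. A fit with the replicate block gave 8, 3, 3 and 9 pairs of gene and region for the F test, the fetal change, birth and the whole span. ITGAM in brainstem at birth then had an adjusted p of 0.0553 in limma, and the other counts stayed as they were.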
